A study of Mus musculus with 5 samples.

Results

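The molecules described here are the 2 receptors targeted by the checkpoint antibodies of the study, their ligands, and the costimulatory receptor that shares ligands with one of them. They comprise 7 genes, Pdcd1, Ctla4, Cd28, Cd274, Pdcd1lg2, Cd80, and Cd86, out of 33696 gene features in the MC38 matrices and 32285 in the matrices of tumor-draining lymph nodes (TDLNs). The genes were chosen by name, with earlier results of these data known. All 7 were present once in each of the 5 matrices. They were followed across cell classes set by marker genes, none of which is a member, and across treatments in MC38 tumors.

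PD-1, encoded by Pdcd1, is an inhibitory receptor of activated T cells that is engaged by PD-L1 (Cd274) and PD-L2 (Pdcd1lg2). CD28 gives the costimulatory signal that accompanies antigen recognition, and CTLA4, which is abundant in regulatory T cells (Tregs), binds the same ligands, CD80 and CD86, with higher affinity and limits that signal. PD-L1 is induced by interferons through JAK-STAT signaling and is found on many cell types, whereas PD-L2, CD80, and CD86 are best known from antigen-presenting cells.

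Single-cell RNA sequencing (scRNA-Seq) was performed on male WT C57BL/6J mice aged 8 to 10 weeks that carried s.c. tumors of the TRAMP-C2 (prostate cancer) or MC38 (colon carcinoma) line. Isotype antibodies or CPI, a mixture of anti–PD-1 and anti-CTLA4, were given 3 times, at day 3, day 6, and day 9. On day 12 mice received vehicle or 20 mg/kg ABT-317, a JAK1 inhibitor, and TDLNs of TRAMP-C2 mice or MC38 tumors were collected on day 15. The paper's scRNA-Seq methods count the harvest day from implantation. For MC38, its figure legend instead counts days from enrollment, once tumors had reached a set volume. The schedules of TRAMP-C2 and MC38 mice may therefore differ. The 4 MC38 groups were isotype, CPI, CPI + ABT-317, and isotype + ABT-317, each marked by its own hashtag antibody in each of 2 reactions. Tumor cells were sorted into CD45+ and CD45- fractions and pooled at equal numbers, so shares of cells do not give the makeup of a tumor. The 3 TDLN reactions held no hashtag counts and were not divided by treatment.

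MC38 reactions 1 and 2 kept 33762 and 23332 barcodes, with a median of 8782 and 9998 gene UMIs (unique molecular identifiers, each marking 1 captured RNA molecule), and the TDLN reactions kept 62571, 56509, and 7050, with a median of 1713 to 1905. Exactly 1 hashtag was found in 64.2% and 71.2% of the MC38 barcodes. Reactions shared 3.16% to 8.76% of the barcodes of the smaller one. In TDLNs, T-like and B-like barcodes were allowed at most 1 marker of the other lymphocyte list. Before that limit, 29074, 26518, and 3480 barcodes passed the T cell marker rule and 34730, 18131, and 3233 the B cell rule. With it, only 3.51%, 6.41%, and 2.65% of barcodes could be named T- or B-like, so TDLN levels rest on this small part. The remaining barcodes held the T and B cell marker lists together, with a summed level of 3243 to 3626 and 3359 to 4401 CPM (the UMIs of a gene scaled to a total of 1000000 gene UMIs) where Ptprc, the gene of CD45, was detected. They are unnamed here.

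Levels are given in CPM, from UMIs summed over a class within a reaction, with an exact Poisson 95% interval where shown. Intervals cover counting error only. Tests are edgeR's quasi-likelihood test on these sums across all genes, with Benjamini-Hochberg adjusted p at or below 0.05 as a call. The main fits do not pair the sums that share a reaction. This test gives no SE, so the SE printed is the absolute log2 fold change divided by the square root of its F statistic. Each treatment group held several mice, per the study's methods, but how they were divided over the hashtags and reactions is not given in the sources used here. The p-values of treatment tests thus measure only the spread between the sums of 2 reactions, which may be technical. Those of class tests draw on the spread between reactions over all classes of the fit, which may be technical too. These fits held 22 sums in MC38 and 13 in TDLNs. In such sums, fewer cells of a type and less RNA per cell cannot be told apart.

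In the GRCm38 genome, Cd28 (ENSMUSG00000026012, chr1:60716800-60773359, plus strand) and Ctla4 (ENSMUSG00000026011, chr1:60887000-60915832, plus strand) lie 113640 bases apart. Pdcd1 (ENSMUSG00000026285, chr1:94038305-94052553, minus strand) is on the same chromosome. The 2 PD-1 ligand genes, Cd274 (ENSMUSG00000016496, chr19:29367455-29388095, plus strand) and Pdcd1lg2 (ENSMUSG00000016498, chr19:29410919-29471161, plus strand), are separated by 22823 bases. Cd86 (ENSMUSG00000022901, chr16:36603869-36666081, minus strand) and Cd80 (ENSMUSG00000075122, chr16:38455561-38496335, plus strand) are 1789479 bases apart. All 7 are protein-coding, and the intervals are whole genes.

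The MC38 panel as analysed held antibodies to 3 of the 7 proteins, PD-1 (CD279), PD-L1 (CD274), and CD86. Their oligonucleotides are shown because surface signal was counted from reads that carry them; capitals mark the whole barcode.
CD279: GAAAGTCAAAGCACT
CD274: TCGATTCCACCAACT
CD86: CTGGATTTGTGTATC
The hashtag oligonucleotides that assign a barcode to isotype or CPI, on which the main treatment contrast rests, differed between reactions.
Isotype, reaction 1: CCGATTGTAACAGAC
Isotype, reaction 2: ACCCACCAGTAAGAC
CPI, reaction 1: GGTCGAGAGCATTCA
CPI, reaction 2: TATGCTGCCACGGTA

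Pdcd1 was highest in T-like barcodes of MC38 tumors. Its level in CD8 T-like barcodes was 144 CPM in reaction 1 (95% interval, 107 to 189, 199 barcodes) and 225 CPM in reaction 2 (173 to 287, 180 barcodes), and 18.6% and 23.3% of these barcodes held a Pdcd1 UMI. CD4 conventional T-like barcodes held 129 and 444 CPM from 29 and 28 barcodes, and Treg-like barcodes held 54.7 and 62.1 CPM from 3 UMIs each. Treg-like barcodes lay below the CD8 T-like and CD4 conventional T-like classes in both reactions, but the difference from CD4 conventional T-like barcodes was not called (log2 fold change -2.13, SE 0.83, adjusted p = 0.768). Other T-like barcodes, which met the rule of none of these subsets, held 134 and 198 CPM from 236 and 164 barcodes. Macrophage-like barcodes held 0.715 and 1.49 CPM. Endothelial-like barcodes, which should lack the gene, held 0 UMIs in 69 and 59 barcodes at median depths of 3028 and 3940 UMIs, above the 1290 and 1182 of CD8 T-like barcodes; 3 UMIs would be 9.09 and 8.07 CPM.

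Ctla4, the second antibody target, was highest in Treg-like barcodes. They held 347 CPM (209 to 541) and 580 CPM (385 to 838), with a UMI in 50.0% and 63.2% of 20 and 19 barcodes. CD4 conventional T-like barcodes held 129 and 157 CPM and CD8 T-like barcodes 121 and 127 CPM. The Treg-like values stood above both in each reaction, but the difference from CD4 conventional T-like barcodes missed the threshold (log2 fold change 1.72, SE 0.50, adjusted p = 0.668). It was called when the minimum density of marker UMIs was removed (2.43, adjusted p = 0.0487). Outside T-like barcodes Ctla4 was lower, with 3.36 and 2.93 CPM in macrophage-like and 2.50 and 2.29 CPM in fibroblast-like barcodes. Monocyte-like barcodes held 23.4 and 5.06 CPM, from 4 and 1 UMIs. Mature regulatory dendritic cell (DC)–like and neutrophil-like barcodes of both reactions held 0 UMIs. Their upper limits were 46.1 and 31.3 CPM and 31.2 and 25.0 CPM, so these classes cannot be placed below the others.

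Cd28 was shared by all T-like classes. It stood at 241 and 260 CPM in CD8 T-like, 177 and 444 CPM in CD4 conventional T-like, and 164 and 290 CPM in Treg-like barcodes, and the order of the 3 classes changed between reactions. A Cd28 UMI was found in 33.2% and 32.8% of CD8 T-like barcodes, against 0% and 3.39% of endothelial-like barcodes. Macrophage-like barcodes held 1.46 and 1.65 CPM and monocyte-like barcodes 41.0 and 20.2 CPM.

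Cd274 had UMIs in each of the 13 MC38 classes plotted and was highest in mature regulatory DC–like barcodes in both reactions. Mature regulatory DC–like barcodes held 462 CPM (325 to 637, 18 barcodes) and 263 CPM (179 to 374, 15 barcodes), neutrophil-like barcodes 271 and 197 CPM, and monocyte-like barcodes 222 and 142 CPM. The intervals of these 3 classes overlapped within reaction 2. In reaction 1 the interval of neutrophil-like barcodes (185 to 382) overlapped both others. That of monocyte-like barcodes (157 to 305) lay below that of mature regulatory DC–like barcodes. The place of neutrophil-like barcodes is thus not fixed by the counts in either reaction. As a mean over barcodes of UMIs per 10000, mature regulatory DC–like barcodes held 5.18 and 4.91 and neutrophil-like barcodes 4.75 and 15.0. The order of further classes changed between reactions: cDC2-like barcodes held 269.6 and 108 CPM from 12 and 6 UMIs, Treg-like barcodes 73.0 and 166 CPM, CD4 conventional T-like barcodes 64.4 and 157 CPM, and CD8 T-like barcodes 92.0 and 137 CPM. Macrophage-like barcodes, from far more UMIs, held 89.1 and 94.5 CPM. Endothelial-like barcodes held 39.4 and 29.6 CPM and fibroblast-like barcodes 12.4 and 5.35 CPM. These 2 classes also held 527 and 302 CPM and 655 and 631 CPM of the macrophage marker list, against 8300 and 11675 CPM in macrophage-like barcodes, and its part in their Cd274 was not tested.

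Pdcd1lg2, the gene of the second PD-1 ligand, reached 99.9 and 153 CPM in mature regulatory DC–like barcodes, with a UMI in 27.8% and 53.3% of them. T-like barcodes also held it: 63.2 and 63.3 CPM in CD8 T-like and 73.0 and 104 CPM in Treg-like barcodes, with overlapping intervals. cDC2-like barcodes, the other DC class with 10 or more barcodes in both reactions, held 0 and 1 UMI, while cDC1-like barcodes of reaction 1 held 5 UMIs or 102 CPM. Macrophage-like barcodes stood at 1.34 and 1.19 CPM.

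Cd86, 1 of the 2 B7 ligand genes, peaked in cDC2-like barcodes. It reached 988 and 1085 CPM there, with a UMI in 64.3% and 100.0% of 14 barcodes in each reaction, against 412 and 178 CPM in mature regulatory DC–like, 163 and 166 CPM in macrophage-like, and 164 and 116 CPM in monocyte-like barcodes. The means over barcodes of UMIs per 10000 were 8.67 and 11.4 in cDC2-like and 4.87 and 2.48 in mature regulatory DC–like barcodes. They were 3.30 and 3.21 in macrophage-like and 2.18 and 3.01 in monocyte-like barcodes. Cd80 stood at 135 and 145 CPM in cDC2-like and 112 and 68.0 CPM in mature regulatory DC–like barcodes, where the intervals of the 2 classes overlapped. Monocyte-like barcodes held 41.0 and 45.5 CPM of Cd80, fibroblast-like barcodes 10.9 and 11.7 CPM, and macrophage-like barcodes 6.48 and 6.58 CPM. Treg-like barcodes held no Cd80 UMI in reaction 1 and 8 UMIs, or 166 CPM, in reaction 2, above cDC2-like barcodes there, so the class with the highest Cd80 level changed between reactions.

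**Figure D1:**
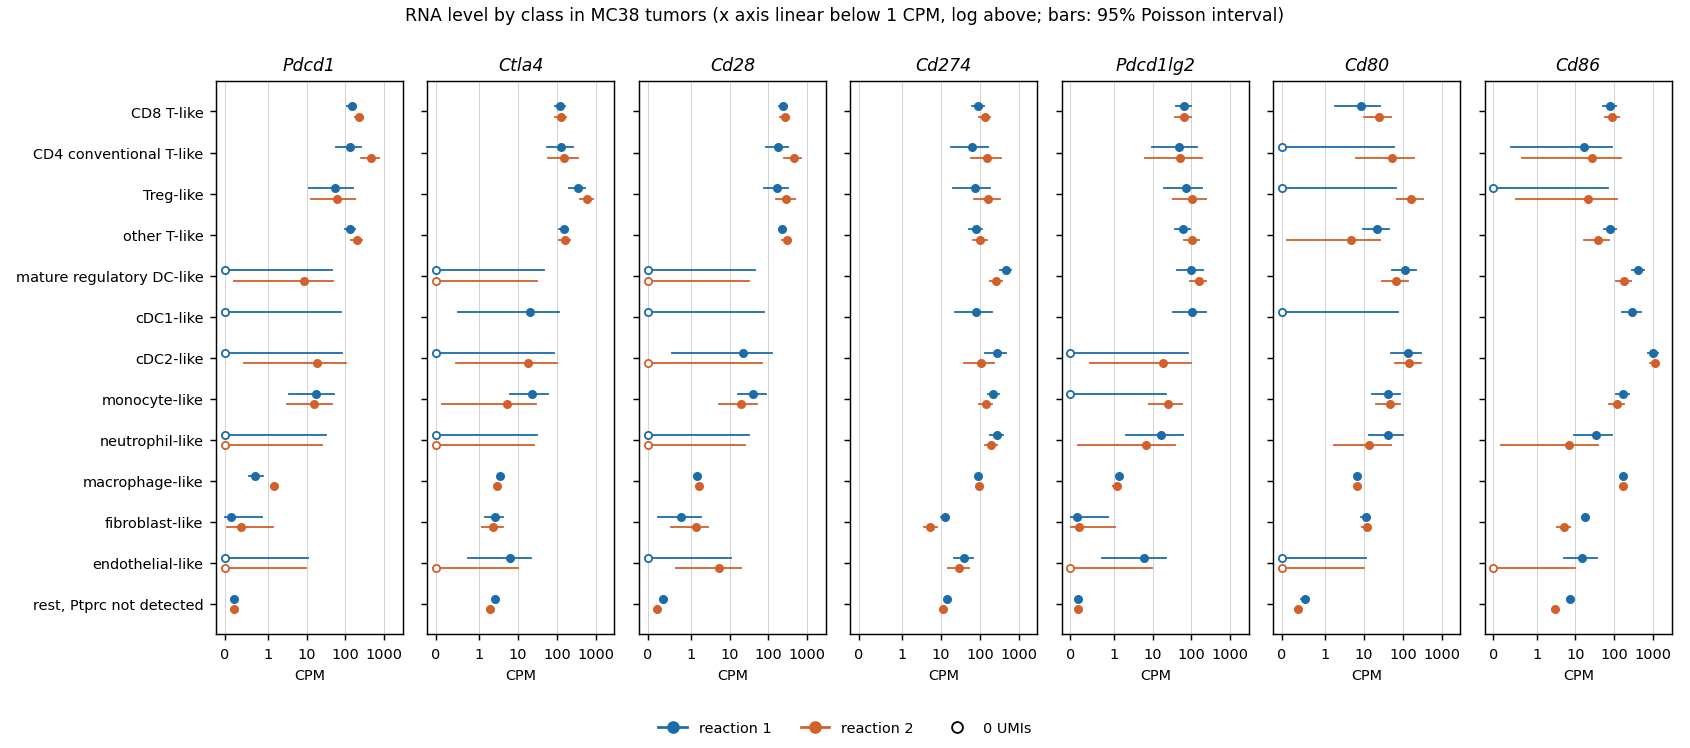
RNA level (x axis, CPM, linear below 1 and log above) of the 7 genes in 13 MC38 classes (rows), with 1 point per reaction and bars for the exact Poisson 95% interval; open points have 0 UMIs. Pdcd1, Ctla4, and Cd28 lie to the right in the T-like rows, Cd86 in the cDC2-like row at 988 and 1085 CPM, and Cd274 has UMIs in every row.

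Of the 7 members tested between classes, 1 was called for mature regulatory DC–like against cDC2-like barcodes, 2 for macrophage-like against monocyte-like barcodes, and none for Treg-like or CD8 T-like against CD4 conventional T-like barcodes. Over all genes, 3.63%, 5%, 0.0833%, and 0.366% were called in these comparisons. At an unadjusted p under 0.05 the counts for Treg-like and CD8 T-like barcodes were 2 and 0, and DESeq2 called 0 in both. Cd86 was lower in mature regulatory DC–like than in cDC2-like barcodes (log2 fold change -1.88, SE 0.49, adjusted p = 0.0277), while the Pdcd1lg2 difference (3.68, SE 1.16, adjusted p = 0.0714) and the Cd274 difference (0.96, SE 0.53, adjusted p = 0.401) missed the threshold. Cd28 and Cd80 were lower in macrophage-like than in monocyte-like barcodes, by a log2 fold change of -4.16 (SE 0.76, adjusted p = 0.000805) and -2.63 (SE 0.66, adjusted p = 0.0147). With the reaction as a block, Pdcd1 (-3.75, adjusted p = 0.00924) and Pdcd1lg2 (-3.28, adjusted p = 0.0461) were called lower too. DESeq2 called 5 of the 7 lower, adding Pdcd1 (adjusted p = 0.000147), Pdcd1lg2 (adjusted p = 5.78e-05), and Ctla4 (-2.08, adjusted p = 0.0244). Monocyte-like barcodes also held 310 and 192 CPM of the T cell marker list, with 10 of 12 markers at 1 or more UMIs, against 19.7 and 21.0 CPM in macrophage-like barcodes, and its part in these results was not tested. The Cd86 call was lost with DESeq2 (-1.85, adjusted p = 0.0802), with the ceiling of 2500 genes per cell that the study used (-1.14, adjusted p = 0.118), and without barcodes of several hashtags (-1.66, adjusted p = 0.0741). When the minimum density of marker UMIs was removed, the calls of Cd86 (-1.09, adjusted p = 0.425) and Cd80 (-0.18, adjusted p = 0.933) were lost, and Cd274 (1.64, adjusted p = 0.0447) and Pdcd1lg2 (3.30, adjusted p = 0.0272) were called higher in mature regulatory DC–like than in cDC2-like barcodes. Cd274 was called there with the ceiling too (1.605, adjusted p = 0.0476), and Pdcd1lg2 without a filter on low counts (3.95, adjusted p = 0.0478). In macrophage-like against monocyte-like barcodes, a stricter class rule lost the Cd28 call (-3.14, adjusted p = 0.110) and called Cd274 lower (-1.32, adjusted p = 0.0381). Without the density minimum, Cd274 (1.09, adjusted p = 0.00554) and Cd86 (2.73, adjusted p = 2.63e-05) were called higher there, and Pdcd1 lower (-2.88, adjusted p = 0.0115). Pdcd1 was also called lower with the ceiling, without a filter on low counts, and without barcodes of several hashtags (adjusted p = 0.00434, 0.0248, and 0.0291). In Treg-like against CD4 conventional T-like barcodes, Ctla4 was called higher without the density minimum (2.43, adjusted p = 0.0487).

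The genes whose pattern over 24 sums of 13 MC38 classes was most like each member were found by Pearson r of log2(CPM + 1), among 8832 genes that are not class markers. For Cd28 they included Lck and Icos, each at 0.98. Cxcr6 (0.93) and Themis (0.92) came first for Pdcd1, and Ptpn22, Ptprcap, and Rinl (each 0.92) for Ctla4. H2-Aa (0.89), an MHC class II gene, came first for Cd86, Sub1, Srgn, and Mxd1 (each 0.83) for Cd274, Pkp3 (0.82) for Pdcd1lg2, and Wdr91 (0.75) for Cd80. Among the members, the receptors were most alike (0.85 for Pdcd1 with Cd28, 0.84 for Pdcd1 with Ctla4, and 0.83 for Ctla4 with Cd28), and Cd80 with Cd86 reached 0.62. The sums of a reaction share their library and differ widely in depth, so these values describe the sums alone.

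In TDLNs, Ctla4 again marked Treg-like barcodes. They held 953 CPM (739 to 1211, 22 barcodes) in reaction 1 and 701 CPM (585 to 833, 79 barcodes) in reaction 2, with a UMI in 72.7% and 54.4% of them, against 115 and 168 CPM in CD4 conventional T-like barcodes. The groups did not overlap, and Ctla4 was called higher in Treg-like barcodes (log2 fold change 2.34, SE 0.31, adjusted p = 0.000297), 1 of 5 members tested in a comparison that called 0.496% of all genes. The call held in all 9 alternatives tried, with adjusted p up to 0.0499 when 1 reaction was left out. CD8 T-like barcodes held 52.9, 82.1, and 108 CPM of Ctla4 and B-like barcodes 80.6, 53.1, and 116 CPM; a UMI was found in 7.27% to 13.7% of B-like barcodes, which should lack the gene, at median depths of 1082 to 1523 UMIs.

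Pdcd1 and Cd80 were too low in TDLNs to be tested. Pdcd1 stood at 14.2 and 71.2 CPM in Treg-like barcodes, from 1 and 13 UMIs, at 13.5 and 14.2 CPM in CD4 conventional T-like barcodes, and at 4.99, 6.72, and 0 CPM in CD8 T-like barcodes, where B-like barcodes held 4.27, 4.18, and 24.9 CPM. Cd80 did not exceed 5.70 CPM in any named class.

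Cd28 was found in all TDLN T-like classes, at 526 and 307 CPM in Treg-like, 339 and 348 CPM in CD4 conventional T-like, and 295, 273, and 215 CPM in CD8 T-like barcodes. None of the 5 members tested was called between CD8 T-like and CD4 conventional T-like barcodes (1 at an unadjusted p under 0.05, Ctla4 at -0.96 with adjusted p = 0.476, 0 by DESeq2), where 0.155% of all genes were called. Cd274 in Treg-like barcodes was 128 and 93.1 CPM against 74.5 and 56.98 CPM in CD4 conventional T-like barcodes, and Pdcd1lg2 was 85.4 and 76.7 CPM against 6.77 and 25.6 CPM. Both were higher in each reaction, and neither was called (adjusted p = 0.668 and 0.200).

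Cd86, which B cells carry at the surface, was higher in B-like barcodes, at 337, 323, and 241 CPM, than in CD4 conventional T-like barcodes, at 27.1 and 88.3 CPM (log2 fold change 2.16, adjusted p = 0.000132). Cd28 (-1.40, adjusted p = 0.00338) and Ctla4 (-1.08, adjusted p = 0.0241) were lower, so that 3 of 5 members were called where 9.51% of all genes were. Without reaction 2 the Cd28 and Ctla4 calls were lost (adjusted p = 0.253 and 0.857), and Ctla4 was not called by DESeq2 (adjusted p = 0.0630). B-like barcodes carried 443 to 913 CPM of the T cell marker list, with 11 or 12 of 12 markers present, and its part in their Cd28 and Ctla4 was not tested.

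**Figure D2:**
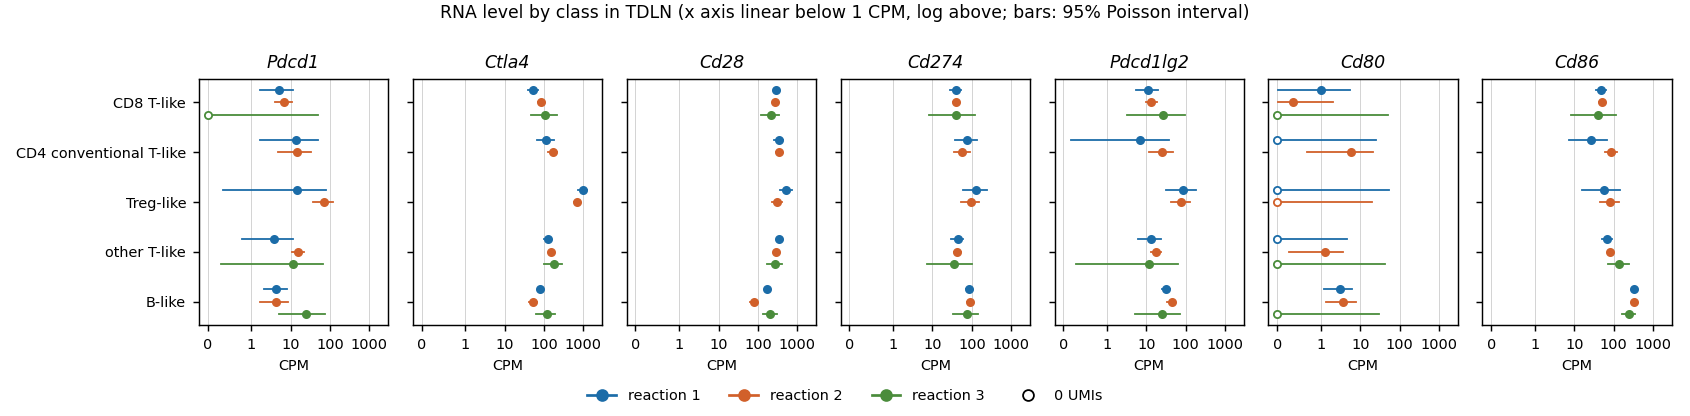
RNA level (x axis, CPM, linear below 1 and log above) of the 7 genes in 5 TDLN classes (rows), with 1 point per reaction that held 10 or more barcodes and bars for the exact Poisson 95% interval; open points have 0 UMIs. Ctla4 in Treg-like barcodes (953 and 701 CPM) and Cd86 in B-like barcodes (241 to 337 CPM) lie to the right of the other classes.

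Treatments in MC38 tumors were compared within the T-like, macrophage-like, and fibroblast-like classes and within the barcodes of no class in which Ptprc was not detected. Barcodes with exactly 1 hashtag numbered 10957 and 9870 under isotype and 2751 and 1688 under CPI. Fibroblast-like barcodes were mainly under CPI, with 759 and 548, against 15 to 27 in each sum of the other treatments. Endothelial-like barcodes were too, with 43 and 33 against 1 to 5. Macrophage-like barcodes were mainly under isotype. The cause of these uneven splits was not tested. T-like barcodes were also found mainly under CPI, with 365 and 292 barcodes, against 16 and 18 under isotype. Either ABT-317 group held fewer than 10 in a reaction, so only CPI and isotype could be compared. Pdcd1 stood at 150 and 261 CPM under CPI and at 34.1 and 58.3 CPM under isotype, the latter from 1 and 2 UMIs. The 2 groups did not overlap, and the difference was not called (log2 fold change 2.23, SE 0.73, adjusted p = 0.325). Ctla4 was 164 and 199 CPM under CPI against 273 and 233 CPM, and Cd28 was 251 and 321 CPM against 273 and 204 CPM. Cd274 was 90.6 and 124 CPM against 34.1 and 233 CPM, and Pdcd1lg2 was 67.9 and 89.6 CPM against 68.2 and 117 CPM.

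None of the 6 members tested in T-like barcodes was called by edgeR or DESeq2, 1 had an unadjusted p under 0.05, and 0.026% of all genes were called. On simulated counts of this size the test found 34% of 4-fold and 4% of 2-fold changes, so differences of these sizes were mostly not detectable. A first class rule without a minimum density of marker UMIs called all 6 higher under CPI, with log2 fold changes of 3.20 for Pdcd1, 2.73 for Cd86, 2.41 for Cd28, 2.38 for Ctla4, 1.83 for Pdcd1lg2, and 1.75 for Cd274 (adjusted p from 4.06e-05 to 0.0128). The minimum was added after those values were seen.

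Macrophage-like barcodes were the largest immune class, with 5849 and 5310 barcodes under isotype, 417 and 248 under CPI, 664 and 514 under CPI + ABT-317, and 721 and 397 under isotype + ABT-317. Among 6 members tested, Cd28 and Pdcd1lg2 were higher and Cd86 was lower under CPI than under isotype, which are 3 calls where 4.84% of all genes were called. Cd86 was 263 and 250 CPM under isotype and 160 and 157 CPM under CPI (log2 fold change -0.84, SE 0.15, adjusted p = 0.0113). The groups did not overlap, and the 2 reactions lay close together within each. In the same sums the macrophage marker list was 13173 and 17298 CPM under isotype and 8124 and 12165 CPM under CPI, and the fibroblast marker list was 1620 and 1328 CPM under isotype and 3479 and 2115 CPM under CPI, each with all 10 fibroblast markers present, and their part in the Cd86 difference was not tested.

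Pdcd1lg2 was 1.43 and 1.19 CPM under isotype and 5.38 and 7.94 CPM under CPI, from 14 and 10 UMIs (log2 fold change 2.10, SE 0.43, adjusted p = 0.0203). Cd28 was 1.33 and 1.14 CPM under isotype and 5.00 and 7.94 CPM under CPI, from 13 and 10 UMIs (log2 fold change 2.13, SE 0.42, adjusted p = 0.0179). Both genes stood higher under CPI in each reaction. The T cell marker list moved with them, from 16.6 and 15.4 CPM under isotype to 50.4 and 58.0 CPM under CPI, with all 12 markers present in each, and its part in the result was not tested. Cd274 was 127 and 128 CPM under isotype and 107 and 139 CPM under CPI, with the CPI reactions on either side of both isotype values (log2 fold change -0.21, SE 0.16, adjusted p = 0.552). Cd80 was 8.73 and 8.22 CPM against 11.9 and 8.74 CPM, and Ctla4 was 3.17 and 2.85 CPM against 3.46 and 0.79 CPM (adjusted p = 0.872 and 0.794).

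When ABT-317 followed CPI, Cd28 stood at 1.31 and 0.47 CPM, lower than under CPI alone (log2 fold change -2.54, SE 0.54, adjusted p = 0.0432), the 1 call among 6 members where 1.98% of all genes were called. Pdcd1lg2 was 2.14 and 3.52 CPM, between CPI and isotype, and was not called (-1.08, adjusted p = 0.382). Cd274 was 144 and 145 CPM and Cd86 184 and 183 CPM, higher than under CPI in both reactions. Neither was called without the block, and both were called with it (0.39 with adjusted p = 0.00741 for Cd274, and 0.32 with adjusted p = 0.0302 for Cd86). With hashtags fitted on uncentered counts, Cd274 was called too (0.78, adjusted p = 0.0235). In the same sums the fibroblast marker list was 3479 and 2115 CPM under CPI and 1808 and 1556 CPM under CPI + ABT-317, and the median depth was 2976 and 2946 UMIs against 5037 and 5178, and their part in these differences was not tested. The T cell marker list was 18.2 and 12.2 CPM under CPI + ABT-317, near its isotype level, and its part in the Cd28 difference was not tested.

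Under isotype + ABT-317, Cd274 was 72.0 and 73.0 CPM, below all 6 sums of the other treatments, and Cd86 was 135 and 161 CPM, below both isotype sums. Neither passed the test (-0.86 with adjusted p = 0.0764 for Cd274, and -0.83 with adjusted p = 0.0735 for Cd86), where edgeR called 0 of 6 members, 2 had an unadjusted p under 0.05, and 0.0486% of all genes were called. Both were called with the reaction as a block (-0.85 with adjusted p = 1.95e-09 for Cd274, and -0.85 with adjusted p = 1.44e-09 for Cd86) and by DESeq2 (adjusted p = 0.00208 and 0.000928). They were also called without a filter on low counts (adjusted p = 1.05e-05 and 7.4e-06) and without the density minimum (adjusted p = 0.00568 for each). The macrophage marker list also stood at 6858 and 9516 CPM under isotype + ABT-317 against 13173 and 17298 CPM under isotype, and at 8124 and 12165 CPM under CPI and 8327 and 12944 CPM under CPI + ABT-317. Its part in the Cd274 and Cd86 values was not tested.

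Within mice that received ABT-317, CPI went with higher Cd274, from 72.0 and 73.0 to 144 and 145 CPM (log2 fold change 1.00, SE 0.16, adjusted p = 0.0338), the 1 member called where 0.494% of all genes were called. With the block, Pdcd1lg2 (1.76, adjusted p = 0.0471), Cd80 (0.97, adjusted p = 0.0168), and Cd86 (0.33, adjusted p = 0.0106) were called higher too. The interaction, the CPI effect with ABT-317 minus that without, was called for Cd274 (1.21, SE 0.23, adjusted p = 0.0306) and Cd86 (1.15, SE 0.21, adjusted p = 0.0288), 2 of 6 members where 1.99% of all genes were called. With the block, Cd28 was called as well (-2.35, adjusted p = 0.0375).

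These macrophage calls changed with the sums left out and with how hashtags were read. With each sum left out in turn, which leaves 1 sum in a group that is assumed to vary like the others, the calls of Cd28 and Pdcd1lg2 (CPI against isotype), Cd28 (CPI + ABT-317 against CPI), and Cd274 (CPI + ABT-317 against isotype + ABT-317) were lost in 4 of 4 cases, with log2 fold changes of 1.80 to 2.57, 1.83 to 2.48, -3.51 to -2.11, and 0.91 to 1.05, and that of Cd86 was lost without either CPI sum, with -0.89 to -0.82. When treatment was taken from the hashtag that led by 1 log unit, Cd28 turned to -0.087 for CPI against isotype and to 0.055 for CPI + ABT-317 against CPI, Cd86 fell short at -0.37 (adjusted p = 0.635), and Cd274 in CPI + ABT-317 against isotype + ABT-317 was 0.35 (adjusted p = 1). The interaction there was 0.31 for Cd274 (adjusted p = 0.935) and -0.015 for Cd86 (adjusted p = 1). The Cd274 interaction also lost its call with the ceiling of 2500 genes (1.02, adjusted p = 0.0504), with hashtags fitted on uncentered counts (0.97, adjusted p = 0.0819), and without the density minimum (0.94, adjusted p = 0.0716), as did that of Cd86 (0.76, 0.51, and 0.86, with adjusted p of 0.121, 0.538, and 0.0849). With uncentered counts Cd86 was -0.23 for CPI against isotype (adjusted p = 0.572). Pdcd1lg2 was called lower in CPI + ABT-317 than in CPI with the leading hashtag (-2.13, adjusted p = 0.0325). It kept its call for CPI against isotype there and lost it under a stricter class rule (1.74, adjusted p = 0.0898). Cd28 lost its call under the stricter rule (1.95 for CPI against isotype and -2.46 for CPI + ABT-317 against CPI, adjusted p = 0.0557 and 0.0943) and without the density minimum (2.12 and -2.59, adjusted p = 0.0504 and 0.0601). Under the ceiling, Cd274 in CPI + ABT-317 against isotype + ABT-317 was 0.80 without a call (adjusted p = 0.0589).

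**Figure D3:**
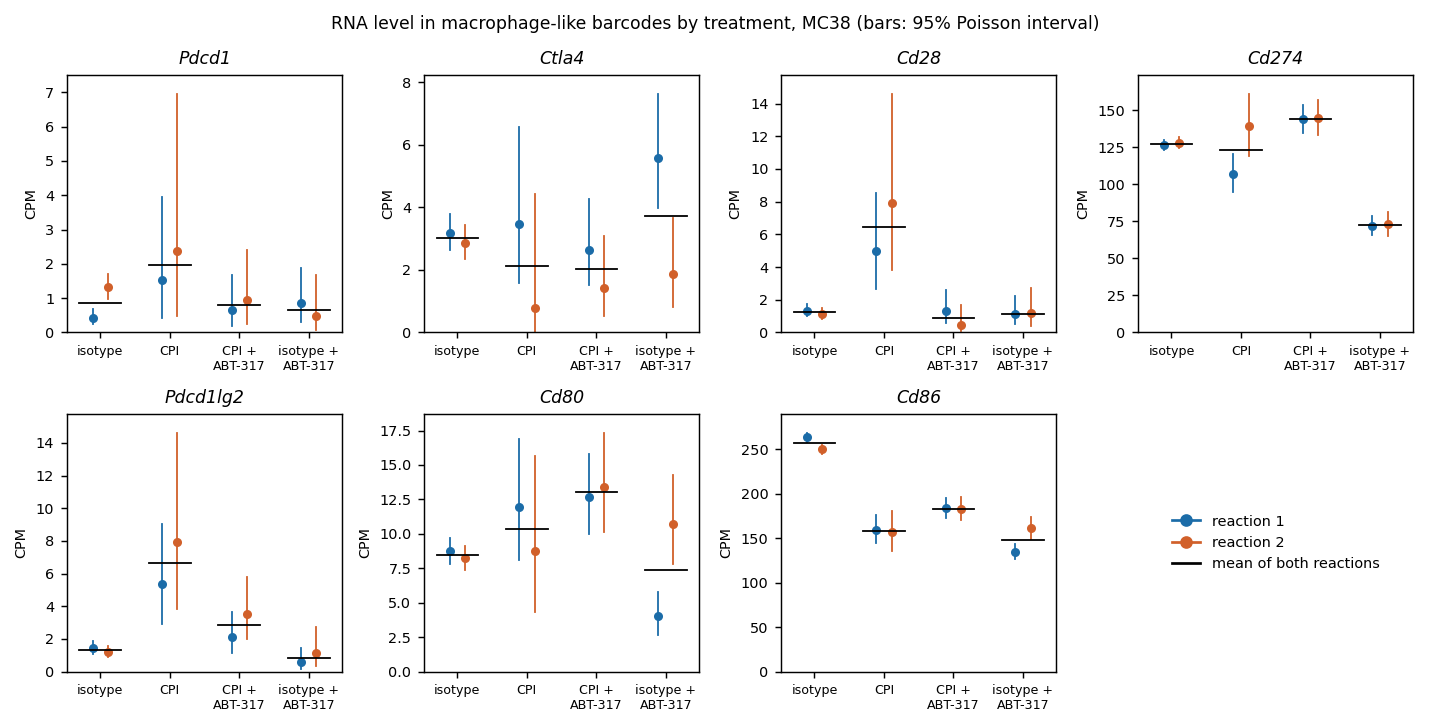
RNA level (y axis, CPM from 0) of the 7 genes in macrophage-like barcodes of MC38 tumors by treatment (x axis), with 1 point per reaction, bars for the exact Poisson 95% interval, and a line for the mean of both reactions. Cd86 stands at 263 and 250 CPM under isotype and at 135 to 184 CPM elsewhere, and Cd274 at 72.0 and 73.0 CPM under isotype + ABT-317 and at 107 to 145 CPM elsewhere.

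At the cell surface, the CD274 antibody on macrophage-like barcodes was higher under CPI, with or without ABT-317. It was 2470 and 2494 CPM (antibody UMIs scaled to a total of 1000000) under isotype, 3149 and 3158 under CPI, 3152 and 3197 under CPI + ABT-317, and 2442 and 2594 under isotype + ABT-317. The CPI sums did not overlap those without CPI, and the differences were called for CPI against isotype (log2 fold change 0.35, SE 0.03, adjusted p = 0.000721) and for CPI + ABT-317 against isotype + ABT-317 (0.31, adjusted p = 0.00764). Beside them, Cd274 RNA differed by -0.21 without a call in the first comparison and by 1.00 with a call in the second. ABT-317 gave no call for the CD274 antibody, at 0.00 after CPI and 0.04 after isotype (adjusted p = 0.995 and 0.566). CPI against isotype was called in all 10 alternatives tried. With the leading hashtag, CPI + ABT-317 against isotype + ABT-317 lost its call (0.26, adjusted p = 0.123), and CPI + ABT-317 against CPI was called lower (-0.25, adjusted p = 0.0414).

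The CD279 antibody on macrophage-like barcodes was 17069 and 16870 CPM under isotype, 16434 and 15590 under CPI, 17335 and 17451 under CPI + ABT-317, and 16385 and 16713 under isotype + ABT-317. The differences were small and called for CPI against isotype (log2 fold change -0.08, adjusted p = 0.0478), CPI + ABT-317 against CPI (0.11, adjusted p = 0.0190), and the interaction (0.13, adjusted p = 0.0388). Endothelial-like barcodes, with 0 Pdcd1 UMIs, held 15328 and 15154 CPM of the same antibody. Mice under CPI had received anti–PD-1, and its part in the CD279 antibody signal was not tested. The CD86 antibody was 4169 and 4299 under isotype and 4228 and 4299 under CPI, and its differences, 0.01 for CPI against isotype and 0.04 for CPI + ABT-317 against CPI, were not called, whereas Cd86 RNA differed by -0.84 and 0.32. With the block, CD86 antibody was called for CPI + ABT-317 against isotype + ABT-317 (0.06, adjusted p = 0.0385).

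Of 3 antibodies to members, 2 were called for CPI against isotype where 22.1% of 122 antibodies were, 1 for CPI + ABT-317 against CPI (23%), none for isotype + ABT-317 against isotype (9.84%, 0 at an unadjusted p under 0.05), 1 for CPI + ABT-317 against isotype + ABT-317 (5.74%), and 1 for the interaction (21.3%). All 3 CD279 calls were lost when library sizes were taken from the isotype control antibodies, with log2 fold changes of -0.056, 0.082, and 0.10 (adjusted p of 0.149, 0.0650, and 0.105), and with the leading hashtag, with -0.091, 0.062, and 0.091 (adjusted p of 0.201, 0.371, and 0.722). The CD279 call for CPI against isotype was also lost with the ceiling of 2500 genes (-0.088, adjusted p = 0.0667) and without the density minimum (-0.086, adjusted p = 0.0509). With uncentered hashtags it was lost (-0.084, adjusted p = 0.214), as was that of the interaction (0.16, adjusted p = 0.115).

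**Figure D4:**
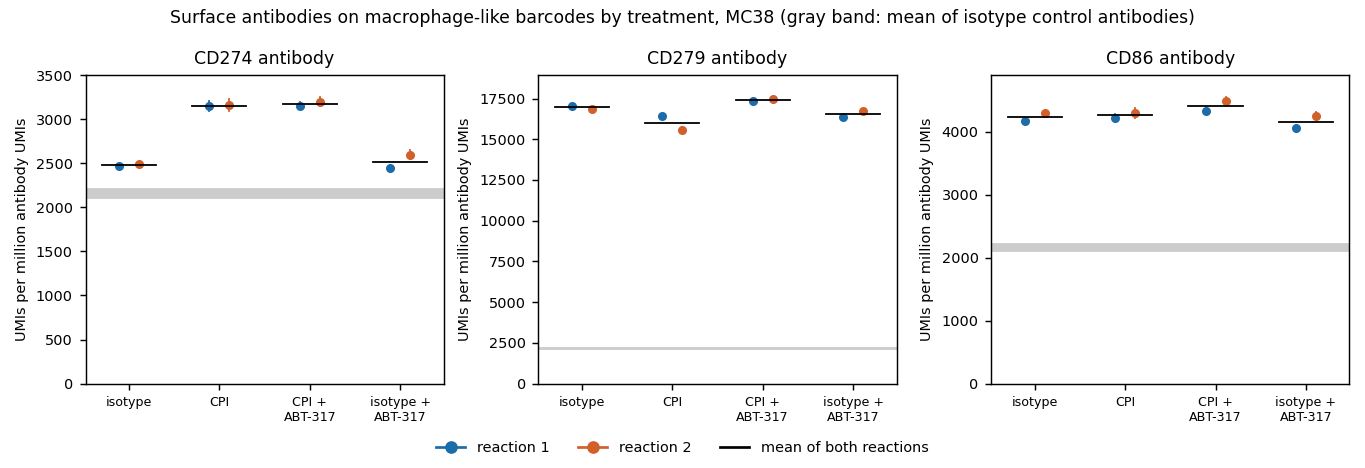
Antibody level (y axis, CPM of antibody UMIs from 0) on macrophage-like barcodes by treatment (x axis), with 1 point per reaction, bars for the exact Poisson 95% interval, a line for the mean of both reactions, and a gray band for the mean of the isotype control antibodies. CD274 lies at 3149 to 3197 in the 4 sums with CPI and at 2442 to 2594 in the 4 without, close above the band; CD279 and CD86 differ little between treatments.

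Across classes, the CD279 antibody gave 14835 to 19946 CPM in every class, also in endothelial-like barcodes (15328 and 15154), where Pdcd1 RNA had 0 UMIs, and its maximum was in Treg-like barcodes (19946 and 19103). CD274 antibody signal was near that of the isotype controls in most classes, with 2747 and 4243 CPM in mature regulatory DC–like barcodes, the latter 2.16 times the isotype control mean. CD86 antibody signal peaked in the same barcodes, at 6664 and 9749 CPM or 3.13 and 4.97 times the control mean, although Cd86 RNA peaked in cDC2-like barcodes. Over 14 classes, which differ in depth and in free antibody, Pearson r between log2 RNA and log2 antibody level was 0.81 and 0.46 for CD274, 0.58 and 0.55 for CD86, and 0.67 and 0.73 for CD279 in reactions 1 and 2.

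**Figure D5:**
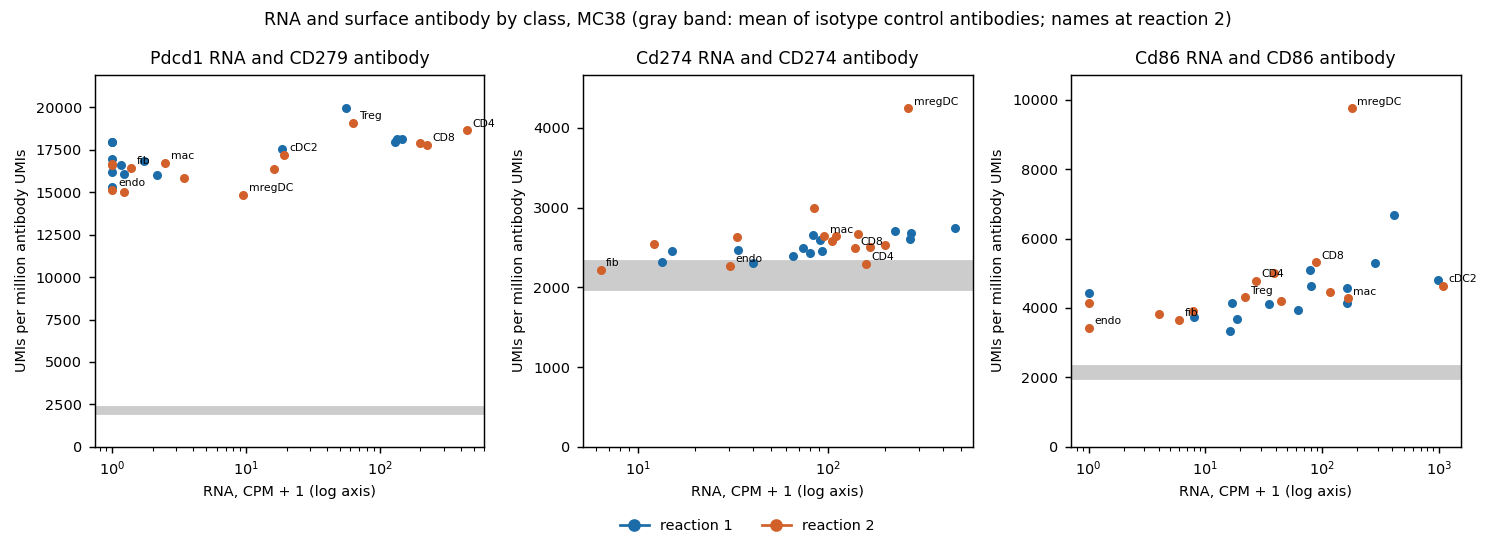
Antibody level (y axis, CPM of antibody UMIs from 0) against RNA level (x axis, CPM + 1, log scale) by class and reaction, with a gray band for the mean of the isotype control antibodies and class names at reaction 2. CD279 spans 14835 to 19946 in all classes while Pdcd1 RNA spans 0 to 444 CPM, and mature regulatory DC–like barcodes (mregDC) stand highest for CD274 and CD86.

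T-like barcodes gave no call for the 3 antibodies between CPI and isotype (0 at an unadjusted p under 0.05), where 1.64% of antibodies were called. CD279 was 18307 and 18024 under CPI against 17502 and 18575, and the part of the anti–PD-1 given under CPI was not tested. In fibroblast-like barcodes no member had enough RNA counts to be tested, in comparisons that called 13.3% (CPI against isotype), 2.49% (CPI + ABT-317 against CPI), 0.0232% (isotype + ABT-317 against isotype), 0.256% (CPI + ABT-317 against isotype + ABT-317), and 0.0929% (interaction) of all genes. None of their 3 member antibodies was called by edgeR, with 1 at an unadjusted p under 0.05 for CPI + ABT-317 against CPI and 0 elsewhere, against 0.82%, 1.64%, 0%, 0%, and 0% of antibodies in the same order.

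In barcodes of no class without detected Ptprc, 5 of 7 members tested were called higher under CPI than under isotype, where 23.1% of all genes were called. Cd274 was 11.04 and 9.55 CPM under isotype and 39.0 and 30.6 CPM under CPI (log2 fold change 1.53, adjusted p = 0.000336), the groups being well apart. Cd80 was 0.45 and 0.31 CPM against 5.95 and 3.59 CPM (3.46, adjusted p = 0.000295), Cd28 was 0.28 and 0.10 CPM against 6.66 and 4.94 CPM (4.77, adjusted p = 0.000212), Pdcd1 was 0.21 and 0.07 CPM against 2.38 and 3.15 CPM (4.08, adjusted p = 0.00268), and Pdcd1lg2 was 0.12 and 0.17 CPM against 1.43 and 3.15 CPM (3.56, adjusted p = 0.00470). Cd86, at 7.42 and 3.44 against 21.2 and 14.4 CPM, was not called (adjusted p = 0.117) but was called higher with the block (1.39, adjusted p = 8.85e-05) and without a filter on low counts (1.44, adjusted p = 7.19e-10), and called lower among barcodes under 2500 genes (-1.003, adjusted p = 0.00415). Ctla4 was not called (0.39, adjusted p = 0.509) but was called higher under the stricter class rule (0.86, adjusted p = 0.0460).

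The CPI sums stood apart in depth and markers. Their barcodes had a median of 1762 and 1846 UMIs against 15443 to 27409 in the other treatments, and they held 47.3 and 54.4 CPM of the T cell list (1.52 to 2.77 elsewhere), 609 and 461 CPM of the macrophage list (55.2 to 200 elsewhere), and 7091 and 7474 CPM of the fibroblast list (1540 to 2435 elsewhere). Their part in the result was not tested. With only barcodes under 2500 genes, Cd274 turned to -0.29 and Cd80 was 0.98 without a call (adjusted p = 0.290). The calls of Cd28 (2.89, adjusted p = 0.105) and Pdcd1 (2.07, adjusted p = 0.446) were lost with the leading hashtag.

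Against CPI alone, CPI + ABT-317 had lower levels of 6 of the 7 members, where 24.2% of all genes were called. Cd274 was 20.2 and 15.5 CPM (log2 fold change -0.72, adjusted p = 0.0157), and the log2 fold changes were -5.40 for Cd28, -4.02 for Pdcd1, -3.98 for Cd80, -4.45 for Pdcd1lg2, and -2.997 for Cd86. The CPI sums are the same as above, with the same marker levels, and among barcodes under 2500 genes Cd274 turned to 0.21 and the calls of Cd80 (-1.81, adjusted p = 0.139) and Cd86 (-0.58, adjusted p = 0.180) were lost. With the leading hashtag, the calls of Cd28, Pdcd1, Cd80, and Cd86 were lost, with -2.75, -1.55, -2.84, and -2.24 (adjusted p of 0.138, 0.594, 0.0586, and 0.0930). Under the stricter class rule Ctla4 was called lower (-0.97, adjusted p = 0.0289). In isotype + ABT-317 against isotype, edgeR called 0 of 7 members (1 at an unadjusted p under 0.05, and 0 by DESeq2) and 0% of all genes, and Cd86 (-1.20, adjusted p = 0.000150) and Cd80 (-1.55, adjusted p = 0.0157) were called lower with the block. Among barcodes under 2500 genes, Cd274 (-1.39, adjusted p = 0.0128) and Cd86 (-1.72, adjusted p = 0.00146) were called lower, and without a filter on low counts Cd86 was (-1.15, adjusted p = 2.17e-06). In CPI + ABT-317 against isotype + ABT-317, where both groups were deep, Cd274 was 20.2 and 15.5 against 9.62 and 8.23 CPM, which missed the threshold (0.96, adjusted p = 0.0552, 0 of 7 called by edgeR, 2 at an unadjusted p under 0.05, 0.142% of all genes) and was called with the block (0.96, adjusted p = 1.56e-07) and by DESeq2 (adjusted p = 3.97e-05).

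The interaction in these barcodes was called for 4 of 7 members, Cd28 (-4.92, adjusted p = 0.00602), Pdcd1 (-4.02, adjusted p = 0.0287), Pdcd1lg2 (-3.85, adjusted p = 0.0352), and Cd80 (-2.45, adjusted p = 0.0350), where 8.96% of all genes were called. With the block, Cd86 (-1.71, adjusted p = 0.000279) and Cd274 (-0.56, adjusted p = 0.00308) were called too. With the leading hashtag all 4 calls were lost, with -3.22, -2.12, -4.23, and -1.78 for Cd28, Pdcd1, Pdcd1lg2, and Cd80 (adjusted p of 0.225, 0.627, 0.0666, and 0.457). Without the density minimum, the calls of Pdcd1 (-4.34, adjusted p = 0.0965), Pdcd1lg2 (-3.88, adjusted p = 0.0597), and Cd80 (-2.70, adjusted p = 0.0536) were lost. Cd80 lost its call with uncentered hashtags too (-2.86, adjusted p = 0.096). Among barcodes under 2500 genes, Cd28 was -2.50 without a call (adjusted p = 0.626), Cd80 turned to 0.67 (adjusted p = 0.839), and Cd274 was called in the opposite direction (1.598, adjusted p = 0.0167). Of the antibodies, CD274 alone was called, for CPI + ABT-317 (2643 and 2702 CPM) against CPI (2551 and 2474, log2 fold change 0.12, adjusted p = 0.0450), where 21.3% of antibodies were called. With library sizes from isotype controls it was 0.02 (adjusted p = 0.884), and with the leading hashtag it was -0.045 (adjusted p = 0.312). CD86 was called there with the block (-0.04, adjusted p = 0.0308). None of the 3 was called in the other comparisons, where 19.7% (CPI against isotype), 0% (isotype + ABT-317 against isotype), 0% (CPI + ABT-317 against isotype + ABT-317), and 16.4% (interaction) of antibodies were; at an unadjusted p under 0.05 these comparisons had 0, 0, 1, and 1. CD274 was called there for CPI against isotype with the leading hashtag (0.15, adjusted p = 0.0226) and for the interaction with uncentered hashtags (0.16, adjusted p = 0.0329).

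Other genes of the pathway were counted from a list of 37 that holds further B7 family members, proximal T cell signaling genes, and JAK-STAT genes. In macrophage-like barcodes 29 were tested for CPI against isotype, of which 3 were higher (among them 1.95 for the costimulatory receptor Icos and 0.69 for the interferon response factor Irf1) and 3 lower (-1.99 for Cd276, -1.29 for Grap2, and -1.12 for the phosphatase Ptpn6), with a median of -0.04 beside 0.02 over all genes. The T cell marker list was 16.6 and 15.4 CPM under isotype and 50.4 and 58.0 CPM under CPI, and its part in the Icos value was not tested. In CPI + ABT-317, Irf1 was higher than in isotype + ABT-317 (0.77), and Jak1, the kinase that ABT-317 inhibits, was lower than in CPI (-0.66). Isotype + ABT-317 against isotype gave 0 calls in the list by edgeR and 11 at an unadjusted p under 0.05, and the interaction gave Grap2 (1.40). The medians of the list in these 4 comparisons were 0.08, 0.13, -0.30, and 0.25 for CPI + ABT-317 against CPI, CPI + ABT-317 against isotype + ABT-317, isotype + ABT-317 against isotype, and the interaction, beside 0.01, -0.02, 0.02, and -0.02 over all genes.

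In T-like barcodes 27 of the list were tested and edgeR called 0 (6 at an unadjusted p under 0.05, median 0.35 beside 0.11 over all genes), and in fibroblast-like barcodes 12 were tested and Cd276 (2.35) and Pik3r1 (1.62) were higher under CPI than under isotype, with 0 calls by edgeR in the other comparisons and 0 to 3 at an unadjusted p under 0.05. In unclassed barcodes without detected Ptprc, 34 were tested: 19 were higher under CPI than under isotype, among them the T cell genes Prkcq (6.25), Zap70 (5.28), Cd96 (5.25), and Tox (5.12), with a median of 1.65 beside -0.02 over all genes. The T cell marker list in these sums was 47.3 and 54.4 CPM under CPI and 2.77 and 1.76 CPM under isotype, and its part was not tested. In CPI + ABT-317 against CPI 20 were lower (median -1.97 beside 0.02 over all genes), and the interaction was lower for 11 (median -1.65 beside 0.02), with Zap70, Cd96, Prkcq, and Tox among the largest in both. In isotype + ABT-317 against isotype and CPI + ABT-317 against isotype + ABT-317, edgeR called 0 of the 34 (1 and 4 at an unadjusted p under 0.05).

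Between classes, 8 of 30 listed genes were lower in macrophage-like than in monocyte-like barcodes, among them Lck (-4.72), Prkcq (-4.51), Icos (-3.74), and Lat (-3.52), with a median of -0.90 beside -0.09 over all genes. The T cell marker list was 19.7 and 21.0 CPM in macrophage-like and 310 and 192 CPM in monocyte-like barcodes, and its part was not tested. In the other MC38 class comparisons edgeR called 0 (2, 6, and 8 at an unadjusted p under 0.05 for Treg-like and CD8 T-like against CD4 conventional T-like and for mature regulatory DC–like against cDC2-like barcodes). In TDLNs, Icos (1.62) was higher in Treg-like than in CD4 conventional T-like barcodes, 1 of 32 tested, with a median of 0.03 beside -0.02 over all genes. B-like against CD4 conventional T-like barcodes had 4 higher and 10 lower, with Lat (-3.88), Icosl (3.35), the gene of the ICOS ligand, Zap70 (-1.33), Tox (-1.27), and Vsir (-1.22) leading, and a median of -0.48 beside 0.00 over all genes. CD8 T-like against CD4 conventional T-like barcodes had 0 by edgeR and 5 at an unadjusted p under 0.05.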

How the data were processed

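The authors deposited raw UMI counts per gene and barcode for 5 reactions, and antibody counts, made with Cell Ranger (per the file headers 8.0.1 in MC38 and 7.1.0 in TDLN matrices, while the submitters' processing notes name 3.1.0). Genes keep their deposited names, and coordinates are from GENCODE on GRCm38. Barcodes with at least 200 genes and under 10% mitochondrial UMIs were kept without the upper limit of 2500 genes used by the study, which is an alternative. Doublets were not called beyond leaving out barcodes with markers of several classes.

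Classes required 2 to 7 markers of a class and 10 list UMIs per 10000 (fibroblast-like, 200). In TDLNs, T-like and B-like barcodes could hold at most 1 marker of the other lymphocyte list, and no monocyte-like or neutrophil-like class was formed. T-like barcodes were then divided without a density minimum. CD8 T-like barcodes had a Cd8a or Cd8b1 UMI and no Cd4 or Foxp3 UMI. Treg-like barcodes had no CD8 UMI and a Foxp3 UMI or 3 markers of the Treg list. CD4 conventional T-like barcodes had a Cd4 UMI, no CD8 UMI, and did not pass the Treg rule. T-like barcodes that met none of these rules were kept as other T-like. They numbered 236 and 164 in the MC38 reactions and 345, 1166, and 46 in the TDLN reactions. A missed UMI of these genes can therefore change the subset. The class thresholds were chosen after seeing the data, and the density minimum after treatment tests had been seen. The members and gene lists were chosen with earlier results of these data known. Hashtags were called by 2 normal components per hashtag on centered log counts, at a posterior of 0.5, and exactly 1 was required. The deposited key gives the same 4 treatments in both MC38 reactions, matched by the library names that key and labels share.

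UMIs were summed per class, treatment, and reaction (10 or more barcodes) and tested with edgeR 4.0.16 (TMM, filterByExpr, glmQLFit, glmQLFTest) in R 4.3.3, with 1 fit per class over all treatments, or over all classes of a tissue. DESeq2 1.42.0 was an alternative. The tests were checked on simulated counts, where edgeR found 59% of 2-fold and 89% of 4-fold changes for macrophage-like CPI against isotype. Treatments share a reaction, which is a common batch, and the reaction numbers therefore pair the sums. Deviations of same-numbered sums correlated at 0.497 to 0.787 in macrophage-like and 0.0204 to 0.240 in fibroblast-like barcodes. In unclassed barcodes without detected Ptprc they correlated at 0.563 to 0.939. The main fits leave this pairing out. The reaction block is an alternative, printed where it changes a call. NK-like and cDC1-like comparisons, and DC comparisons in TDLNs, had too few barcodes. The named genes are the 7 members, the called genes of a fixed list of 37 (the 5 with the largest change where more were called), and the 3 most alike. Of these, 2 genes are not reported here.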

Additional observations from a re-analysis of the deposited data

Results flagged for a closer look

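In macrophage-like barcodes the CPI effect differed by ABT-317 in a test of the interaction. The difference on the log2 scale was 1.21 for Cd274 (adjusted p = 0.0306) and 1.15 for Cd86 (adjusted p = 0.0288) in edgeR. Leaving out 1 sum at a time lost the Cd274 call in 4 of 8 cases (0.98 to 1.46, adjusted p up to 0.134) and the Cd86 call in 5 of 8 (0.97 to 1.34, adjusted p up to 0.144). With the leading hashtag the values were 0.31 (adjusted p = 0.935) and -0.015 (adjusted p = 1), and both calls were also lost with the ceiling of 2500 genes, with uncentered hashtags, and without the density minimum (0.94 to 1.02 for Cd274 and 0.51 to 0.86 for Cd86). The macrophage marker list stood at 6858 and 9516 CPM under isotype + ABT-317 and at 13173 and 17298 CPM under isotype, and its part was not tested.

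The CD279 antibody on the same barcodes had an interaction of 0.13 (adjusted p = 0.0388), lost in 6 of 8 cases when 1 sum was left out. It was also lost with the leading hashtag (0.09, adjusted p = 0.722), with uncentered hashtags (0.16, adjusted p = 0.115), and with library sizes from isotype controls (0.10, adjusted p = 0.105).

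In unclassed barcodes without detected Ptprc, the interaction was -4.92 for Cd28, -4.02 for Pdcd1, -3.85 for Pdcd1lg2, and -2.45 for Cd80. The call of Cd28 held in 8 of 8 cases with 1 sum left out, while those of Pdcd1, Cd80, and Pdcd1lg2 were lost in 6, 6, and 7 of 8. All 4 were lost with the leading hashtag (-3.22, -2.12, -4.23, and -1.78, adjusted p from 0.0666 to 0.627), and under the ceiling Cd28 was -2.50 (adjusted p = 0.626) and Cd80 turned to 0.67. Without the density minimum, those of Pdcd1, Pdcd1lg2, and Cd80 were lost, and that of Cd80 also with uncentered hashtags. The CPI sums had a median of 1762 and 1846 UMIs per barcode and held more T cell, macrophage, and fibroblast marker UMIs than the other treatments, and the part of these was not tested.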

How the results depend on the processing

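Of 35 called results, 270 of 397 values under other settings kept the call, 120 lost it in the same direction, and 7 changed direction; of 127 results not called, 1186 of 1251 values stayed so. Numbers of called members by comparison (T-like, macrophage-like, fibroblast-like, and unclassed barcodes together) were as follows. CPI against isotype had 8 calls, 4 with the ceiling of 2500 genes, 4 with the leading hashtag, 5 with hashtags fitted on uncentered counts, 14 without the density minimum, 9 with the replicate block, and 4 to 7 with 1 sum left out. CPI + ABT-317 against CPI had 7, with 1, 3, and 14 under the ceiling, the leading hashtag, and no density minimum, 9 with the replicate block, and 4 to 6 with 1 sum left out. Isotype + ABT-317 against isotype had 0, with 4 under the replicate block, 2 under the ceiling, 2 by DESeq2, 3 without a filter on low counts, 2 without the density minimum, and 0 with 1 sum left out. CPI + ABT-317 against isotype + ABT-317 had 1, with 5 under the replicate block, 0 under the ceiling and the leading hashtag, 2 by DESeq2, 3 without the filter, 2 without the density minimum, and 0 with 1 sum left out. The interaction had 6, with 1, 0, 3, and 2 under the ceiling, the leading hashtag, uncentered hashtags, and no density minimum, 9 under the replicate block, and 1 to 5 with 1 sum left out. MC38 classes had 3, with 5 under the replicate block, DESeq2, and no filter, and 7 without the density minimum. TDLN classes had 4, and 2 to 4 with 1 reaction left out. Antibodies had 6, with 2 under library sizes from isotype controls, 3 under the leading hashtag, 8 under the replicate block, and 1 to 4 with 1 sum left out. Relative to isotype controls, r between RNA and antibody was 0.62 and 0.35 for CD274, 0.53 and 0.49 for CD86, and 0.59 and 0.69 for CD279 in reactions 1 and 2.

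Direction changed in these results. Without the density minimum, T-like CPI against isotype gave 2.38 for Ctla4, 1.75 for Cd274, and 1.83 for Pdcd1lg2, and macrophage-like against monocyte-like barcodes gave 1.09 for Cd274 (all 4 called). With the leading hashtag, macrophage-like Cd28 was -0.087 for CPI against isotype and 0.055 for CPI + ABT-317 against CPI, and the Cd86 interaction was -0.015. There, CD274 antibody for CPI + ABT-317 against CPI was -0.25 in macrophage-like (called) and -0.045 in unclassed barcodes without detected Ptprc. Under the ceiling, unclassed barcodes without detected Ptprc gave -1.003 for Cd86 (called) and -0.29 for Cd274 in CPI against isotype. They gave 0.21 for Cd274 in CPI + ABT-317 against CPI, and interactions of 0.67 for Cd80 and 1.598 for Cd274 (the latter called). The cause was not tested. MC38 class comparisons could not be fitted with 1 reaction left out. The depth of T-like sums under isotype, 16 and 18 barcodes, limits every T-like treatment comparison.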

Other observations

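Macrophage-like barcodes that carried no single hashtag entered no treatment comparison. In reactions 1 and 2, those with several hashtags numbered 2298 and 1656, with a median of 11457 and 13880 UMIs, and held 108 and 97.0 CPM of Cd86 and 68.4 and 67.6 CPM of Cd274. Those with none numbered 2431 and 1732, with a median of 9320 and 7399 UMIs, and held 79.4 and 71.3 CPM of Cd86 and 45.4 and 44.3 CPM of Cd274. The 7651 and 6469 with exactly 1 hashtag had a median of 3944 and 4512 UMIs and held 233 and 234 CPM of Cd86 and 121 and 125 CPM of Cd274.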
